A study of Mus musculus with 60 samples.

Results

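Inpp4a, Mib1, Eea1, Clasp2 and 2610507B11Rik are 5 of the 9066 genes measured in the striatum of 60 mice, and were chosen as hubs of CoSplicEx, a network that links genes whose exon counts differ between the same mice. They hold 166 of the 114691 exon rows of the deposited exon table, in which each row is a union exon of a gene, named by its start. Inpp4a (ENSMUSG00000026113, chromosome 1) has 29 rows, Mib1 (ENSMUSG00000024294, chromosome 18) has 21, Eea1 (ENSMUSG00000036499, chromosome 10) has 32, Clasp2 (ENSMUSG00000033392, chromosome 9) has 47 and 2610507B11Rik (ENSMUSG00000010277, chromosome 11) has 37. All 5 lie on the plus strand, so rows are numbered here from 5′ to 3′ along each gene. The members were chosen by their connectivity in that network over these same mice, so how their exons vary together is given below as a description, without a test.

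The mice were HS-CC animals, an outbred stock that descends from 8 inbred strains, and all 60 descend from mice bred over generations for their response to haloperidol, an antipsychotic that can bring on catalepsy. By sex and labelled catalepsy phenotype 13 mice were female non-responders and 15 female responders, and among the males 17 were non-responders and 15 responders, with 1 polyA RNA library from the striatum of each mouse and no ages in the sources used here. Whether both phenotypes came from the same selected lines is not given in the sources used here. Mice are named by the number in their sample title, and a p-value measures the spread between mice. Whole reads could be recovered from the gene table. Summed over its 9066 genes they came to between 4913122 and 21872744 per library with a median of 14520042. These totals leave out reads outside those genes, so they are not the full sequencing depth. The totals fell into 17 shallow libraries of at most 9507322 reads and 43 deep ones, and the shallow ones were spread over the groups as 4, 4, 5 and 4 in the order given above. The labelled tissue was checked on 12 genes of striatal projection neurons, of which 9 are in the gene table.

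Exon rows of a gene rise and fall together when the whole transcript does, and part ways when an exon is skipped, when a transcript starts or ends elsewhere, or when reads pile up toward one end of the transcript. PolyA selection captures RNA by its 3′ tail. Inpp4a is a phosphatase that trims phosphoinositides on endosomes, and Eea1 is a long coiled-coil tether that binds a phosphoinositide and Rab5 on early endosomes. Mib1 is a ubiquitin ligase that drives the uptake of Notch ligands in the signal-sending cell. Clasp2 binds the growing ends of microtubules, and 2610507B11Rik is the mouse counterpart of human KIAA0100, a large protein of the bridge-like lipid transfer family.

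An exon value is the authors' read count for a row, scaled by library and rounded, and the share of a row is its exon value as a percentage of the sum over all rows of its gene. Of the 166 rows, 124 averaged at least 10 over the 60 mice (22 in Inpp4a, 19 in Mib1, 20 in Eea1, 29 in Clasp2 and 34 in 2610507B11Rik). Another 21 rows were listed at 0 in every mouse (4, 1, 5, 8 and 3 in the same order), and these are the rows of lowest mean in each gene. The last 21 lay between those limits, 10 of them in Clasp2. The start of 161 rows could be matched to an exon of the GENCODE M21 annotation by the spacing between exon starts, and 139 of those have only 1 annotated length. The 18 rows at 0 that have a single length were 3 to 115 bases long with a median of 64, against 18 to 3437 bases and a median of 147 for 102 rows that averaged at least 10. Of the 22 exons under 75 bases, 14 were at 0 in all mice and 2 averaged at least 10. Of the 117 longer ones, 4 were at 0 in all mice and 100 averaged at least 10. Why the short rows hold few reads was not tested.

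Short exons of Inpp4a and Clasp2 are printed here because they show how few reads the table gives them. Each is an exon of GENCODE M21 on GRCm38, plus strand, that starts where the row starts, and every one of the 7 has a length that 3 divides. A shorter exon of Clasp2, the 3 bases of row 34 in 2 of 11 transcripts, was at 0 in all mice and is not printed. For Inpp4a they are row 16 at chr1:37374272-37374289 and row 20 at chr1:37383339-37383371. For Clasp2 they are row 22 at chr9:113858581-113858604, row 23 at chr9:113860120-113860137, row 25 at chr9:113862436-113862462, row 26 at chr9:113865086-113865112 and row 31 at chr9:113878750-113878773.
Inpp4a row 16: cagttttgaggagtgttg
Inpp4a row 20: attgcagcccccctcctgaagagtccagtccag
Clasp2 row 22: aggatacttctgacaagatggatg
Clasp2 row 23: gaacagcatctgatgatg
Clasp2 row 25: gttcatcatcacctgacaaaaatgaag
Clasp2 row 26: gatcacaatctgctaataccattggtg
Clasp2 row 31: ctcttaggagacatacggactaag

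Inpp4a row 16, an 18-base exon of 3 of the 13 annotated transcripts, and Clasp2 row 25, a 27-base exon of 1 of 11, were at 0 in all 60 mice. Inpp4a row 20, a 33-base exon of 7 transcripts, had exon values from 0 to 28 with a median of 9, and the 1 mouse at 0 was mouse 63. Clasp2 row 22 (24 bases) ranged from 0 to 33 with a median of 6, row 23 (18 bases) from 0 to 29 with a median of 9, and row 31 (24 bases) from 0 to 22 with a median of 8. These 3 rows belong to 5 of the 11 Clasp2 transcripts, as many as hold rows 24, 30 and 32 near them. These counts therefore do not mark rows 22, 23 and 31 as alternative exons. In each of these 3 rows mouse 63 was the only mouse at 0. Clasp2 row 26, a 27-base exon of 1 transcript, was at 0 in 16 mice, reached 15 and had a median of 1. At values this low a skipped exon and a missed read were not distinguishable.

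The value of each gene as a whole varied modestly over the mice. Inpp4a averaged 4842 ± 608 (SD, n = 60, coefficient of variation 12.6%), Mib1 6237 ± 762 (12.2%) and Eea1 1628 ± 179 (11%). Clasp2 averaged 6128 ± 421 (6.87%) and 2610507B11Rik 6234 ± 714 (11.5%). Gene values are not given per length, so they do not rank the genes against each other. Mouse 63, a female responder, had the lowest value of Mib1, Eea1, Clasp2 and 2610507B11Rik, at 0.702, 0.654, 0.82 and 0.472 times the median of the other 59 mice. Inpp4a was lowest in mouse 62, a male non-responder, at 3133, and mouse 63 followed at 3568 or 0.726 times that median. In bulk tissue, fewer cells of a type and less RNA per cell cannot be told apart.

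One row at the 3′ end held a large share of each gene. The last row carried a median of 54.6% of Inpp4a (row 29), 77.5% of Mib1 (row 21), 58.1% of Eea1 (row 32) and 43.5% of Clasp2 (row 47), and in those 4 genes it was also the row of highest mean. In 2610507B11Rik the last row (row 37) carried 10.3%, and the highest row was row 16, a single exon of 1093 bases with a mean exon value of 1336. Mouse 63 stood apart from the other 59 in all 5 last rows. Its share was 81.2% in Inpp4a against 45.2% to 73.7% in the others, and 95.7% in Mib1 against 71.0% to 92.2%. In Eea1 it was 87.9% against 49.7% to 79.3%, in Clasp2 76.0% against 37.6% to 64.3%, and in 2610507B11Rik 33.1% against 7.94% to 23.1%.

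The shift came from the rows before the last one. With the last row taken away, the rest of Mib1 summed to 186 in mouse 63, which is 0.133 times the median of the other mice, while its last row stood at 4148 within their range of 4045 to 6097. The rest of Eea1 was 129 or 0.19 times the median, beside a last row of 936 within 739 to 1179. The rest of Inpp4a was 670 or 0.301 times the median, beside a last row of 2898 within 2025 to 3306. Clasp2 and 2610507B11Rik moved at both ends. The rest of Clasp2 was 1208 or 0.345 times the median, and its last row of 3833 was the highest of all mice, where the others reached 3563. The rest of 2610507B11Rik was 2001 or 0.352 times the median, and its last row of 992 lay at the upper end, under the 1015 of mouse 5.

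The same ordering held in the library as a whole. The 3′ bias of a mouse is here the median, over 2474 genes of known strand with at least 10 rows averaging 10 or more, of the slope of log2 exon value from the first to the last row, after each row's mean over the mice was taken off. Mouse 63 stood at 1.88, mouse 5 at 1.17 (female non-responder), mouse 4 at 0.91 (male responder) and mouse 62 at 0.67, and the next mouse followed at 0.24. These 4 mice come from the 4 groups, 1 from each, and all are deep libraries. They also held the 4 highest shares of the last row in all 5 genes. In Inpp4a mice 5, 4 and 62 had 73.7%, 71.6% and 64.6%, and no other mouse passed 59.8%. In 2610507B11Rik they had 23.1%, 20.2% and 15.9%, and no other mouse passed 12.2%.

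**Figure D1:**
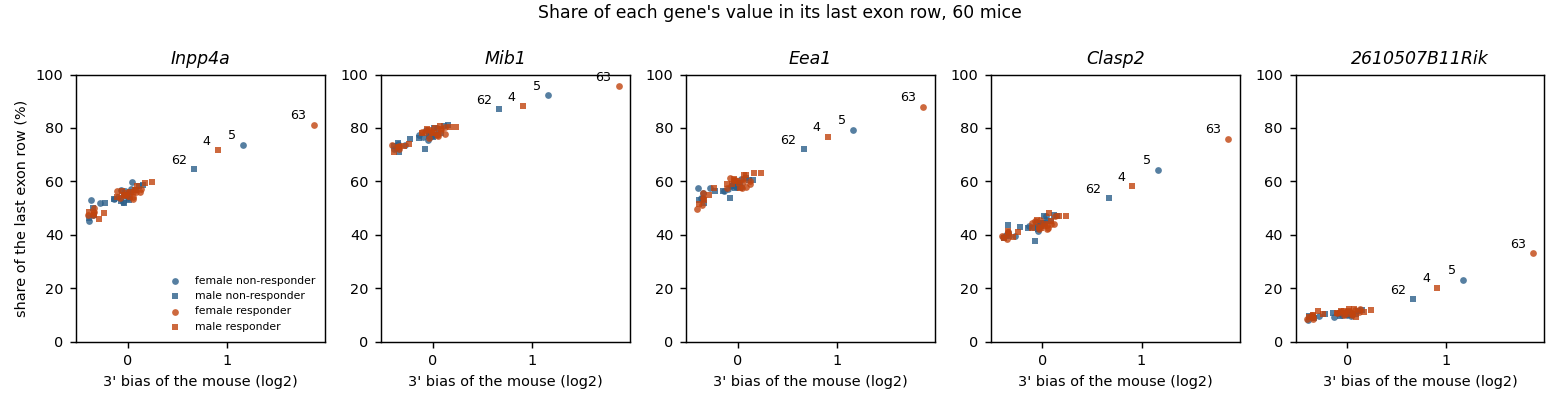
The share of the last exon row (vertical axis, percent of the gene) is plotted against the 3′ bias of the mouse (horizontal axis, log2 slope) for the 5 genes, with 1 point per mouse, colour for phenotype and shape for sex. Mice 63, 5, 4 and 62 sit apart at the upper right in every panel, and the shallow libraries make up most of the group at the lower left.

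Depth and the number of the mouse moved with this measure too. Of the 17 shallow libraries, 16 are the mice numbered 41 to 56, with a 3′ bias from -0.41 to -0.23. The remaining one, mouse 26, a male non-responder, had a bias of 0.01, within the range of the deep libraries. What the numbers 41 to 56 share beside depth is not given in the sources used here. The 17 shallow libraries had a median 3′ bias of -0.34, and the 39 deep libraries other than those 4 mice had a median of -0.0020. The last row of Inpp4a held a median of 48.2% in the shallow libraries (45.2% to 55.3%) and 55.6% in those 39 deep ones (52.03% to 59.8%). For Mib1 the medians were 73.3% and 78.1%, for Eea1 53.9% and 59.1%, for Clasp2 39.8% and 44.1%, and for 2610507B11Rik 9.51% and 10.7%. Within the 39 deep libraries, the correlation of the last row's share with the 3′ bias was r = 0.691 in Inpp4a, 0.555 in Mib1, 0.640 in Eea1, 0.598 in Clasp2 and 0.392 in 2610507B11Rik (Spearman's rho 0.632, 0.529, 0.564, 0.553 and 0.320). Within the 17 shallow ones r was 0.673, 0.884, 0.664, 0.807 and 0.454 (rho 0.480, 0.512, 0.574, 0.627 and 0.588). Without mouse 26, a choice made after seeing the data, r over the other 16 was 0.374, 0.621, 0.591, 0.462 and 0.605 (rho 0.376, 0.415, 0.488, 0.553 and 0.559), and their shares reached 52.9% in Inpp4a and 75.9% in Mib1, where mouse 26 had 55.3% and 79.9%. These are descriptions over mice of the same libraries, and the members are themselves among the genes behind the bias measure.

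Row by row, mouse 63 lost share at the 5′ end and gained it at the 3′ end. Among the 124 rows that averaged at least 10, its share lay below all the other 59 mice in 86 and above them all in 13. Its exon value was the lowest or tied for lowest of the 60 in 100 of these rows. The same counts were not made over the rows of other genes, so they are not shown to be particular to the members. Within each gene, the lowest share relative to the median of the others fell on Inpp4a row 11, Eea1 row 19 and Clasp2 row 23, each at 0 in mouse 63, on Mib1 row 2 at 0.0945 times the median and on 2610507B11Rik row 1 at 0.136 times. The highest, again within each gene, fell on the last row of Inpp4a (1.49 times), Mib1 (1.24 times), Eea1 (1.51 times) and 2610507B11Rik (3.23 times). Clasp2 was the exception, since its highest ratio fell on row 13 at 2.57 times, ahead of its last row at 1.75 times.

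**Figure D2:**
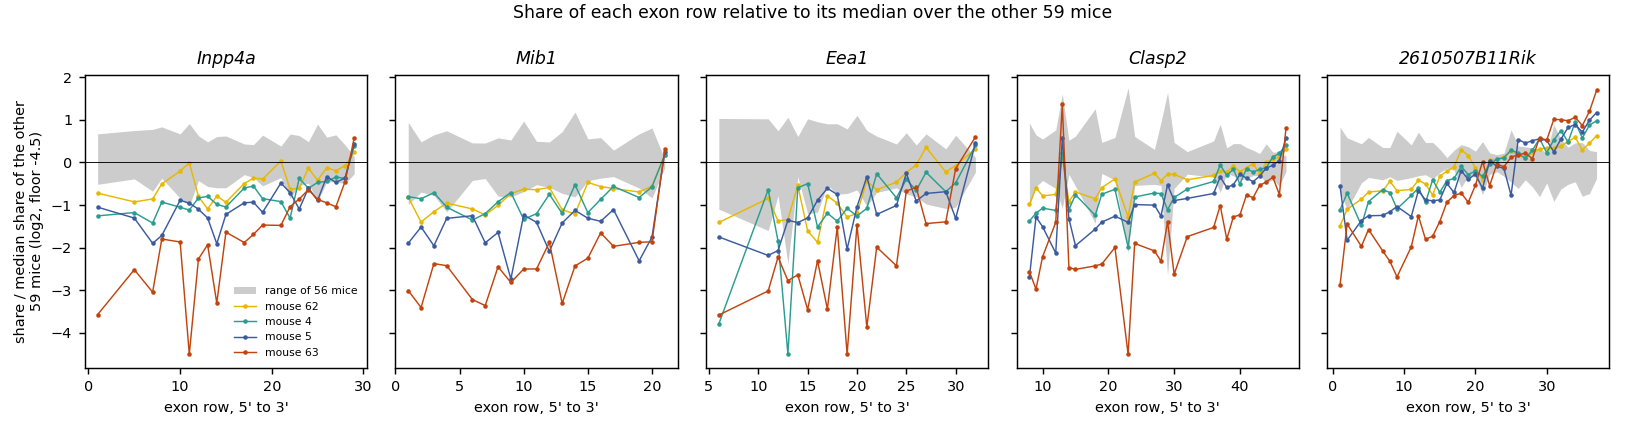
For each exon row that averaged at least 10, in order from 5′ to 3′, the vertical axis gives the log2 ratio of the row's share to its median over the 59 mice other than mouse 63 (values under the axis are drawn at its lower edge). Coloured lines are mice 63, 5, 4 and 62 and the grey band is the range of the remaining 56 mice. Mouse 63 lies under the band along most of Inpp4a, Mib1, Eea1 and Clasp2 and rises above it at the last row, and in 2610507B11Rik it crosses from under to above within the gene.

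Where the crossing falls can be read from the distance to the 3′ end. For each gene the GENCODE M21 transcript that holds most of its rows was taken, and the spliced bases between the end of each exon and the end of the transcript were counted. The 2610507B11Rik transcript has 39 exons and a last exon of 820 bases. All 7 of its rows between 1000 and 1999 bases from the end had a share in mouse 63 above the median of the others, with a median ratio of 1.97. The 4 rows between 2000 and 2999 bases had a median ratio of 1.03, the 4 between 3000 and 3999 bases 0.688, the 6 between 4000 and 5999 bases 0.401, and the 6 beyond that 0.245. The row of highest mean, row 16, fell from a median share of 21.6% to 11.3%.

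In the other 4 genes the last row was the 1 row of the transcript above its median, and the ratios fell with distance. Mib1 ends in an exon of 6594 bases, so all 18 of its earlier rows lie beyond 6000 bases, and their ratios ran from 0.0945 to 0.318 with a median of 0.185. Eea1 ends in an exon of 3437 bases. Its 10 rows between 4000 and 5999 bases had a median ratio of 0.301 and the 7 beyond had 0.146. Inpp4a ends in an exon of 2610 bases, and its rows had a median ratio of 0.533 at 2000 to 2999 bases, 0.36 at 3000 to 3999 bases and 0.191 at 4000 to 5999 bases. The Clasp2 transcript used ends 1492 bases short of the longest annotated end, so its distances to that end would be longer by that much. Its ratios were 0.689 within 1000 bases, 0.413 at 1000 to 1999 bases, 0.219 at 2000 to 2999 bases and 0.189 at 3000 to 3999 bases.

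Clasp2 row 13 sits in the first part of the gene and its share in mouse 63 was nevertheless high. It starts at the terminal exon of 2 short annotated transcripts, Clasp2-206 and Clasp2-211, which stop there. Its exon value ranged from 14 to 97 and was 68 in mouse 63, where its neighbours, row 12 and row 14, stood at 12 and 16. The share of row 13 was 1.35% in mouse 63 against a median of 0.524% in the others, whose range of 0.25% to 1.60% still includes it. Mouse 51, a female responder, gave the highest proportion of row 13 among the reads of row 13 and row 47 together, at 3.91%, against a median of 1.11%.

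Inpp4a has 2 rows that end annotated transcripts near its 3′ end. Row 28 is the terminal exon of 4 transcripts and row 29 of 5. Row 28 as a percentage of the 2 rows together ran from 8.41% in mouse 63 and 9.70% in mouse 5 to 22.8% in mouse 56, a male responder, with a median of 15.7%. The exon value of row 28 was lowest in mouse 63, at 266 against 287 to 740, while its share of 7.46% lay inside the range of the others (7.21% to 13.5%). The percentage of row 28 in the 2 rows together correlated negatively with the 3′ bias of the mouse. The correlation was r = -0.646 over 60 mice, -0.591 without mouse 63 and -0.425 without the 4 mice of strongest 3′ bias. Over the 56 mice without those 4 the percentage ran from 11.8% to 22.8%. By phenotype its median was 16.5% in responders (8.41% to 22.8%) and 15.3% in non-responders (9.70% to 21.2%), and the groups overlapped over most of their range.

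Pairs of rows within a gene were compared by the Pearson correlation of log2(exon value + 1) over mice. Over 60 mice the median correlation over pairs of rows was 0.774 in Inpp4a, 0.868 in Mib1, 0.621 in Eea1, 0.585 in Clasp2 and 0.436 in 2610507B11Rik. The median over all 2482 genes with at least 10 such rows, of known strand or not, was 0.446, so Mib1 ranked 54 and Inpp4a 240 among them, and 2610507B11Rik ranked 1276, below the middle. Without mouse 63 the same medians were 0.717, 0.802, 0.495, 0.375 and 0.287, and 0.391 over all genes. Without the 4 mice of strongest 3′ bias they were 0.502, 0.636, 0.180, 0.165 and 0.245, and 0.327 over all genes. Mib1 and Inpp4a were then still above the middle, at ranks 223 and 570. Eea1 and Clasp2 fell to ranks 2011 and 2091.

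Shares, which take out the level of the gene, gave lower values. Their median correlation, on the log2 odds of the share, was 0.613 in Inpp4a, 0.783 in Mib1, 0.422 in Eea1, 0.423 in Clasp2 and 0.0186 in 2610507B11Rik, against 0.0946 over all genes. Without mouse 63 these were 0.497, 0.654, 0.262, 0.205 and -0.0054, against 0.0266 over all genes. Without the 4 mice they were 0.255, 0.379, 0.0447, 0.051 and -0.0235, against -0.0204. Mib1 ranked 14 of 2482 by this measure both with all 60 mice and with 56. Over the 56 mice Inpp4a ranked 62, Clasp2 465, Eea1 507 and 2610507B11Rik 1304. Where the last row holds most of a gene, as in Mib1 at a median of 77.5%, the other rows are divided by nearly the same sum. A common divisor can by itself raise the correlation between the shares of those rows. How far it set these values and ranks was not tested.

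**Figure D3:**
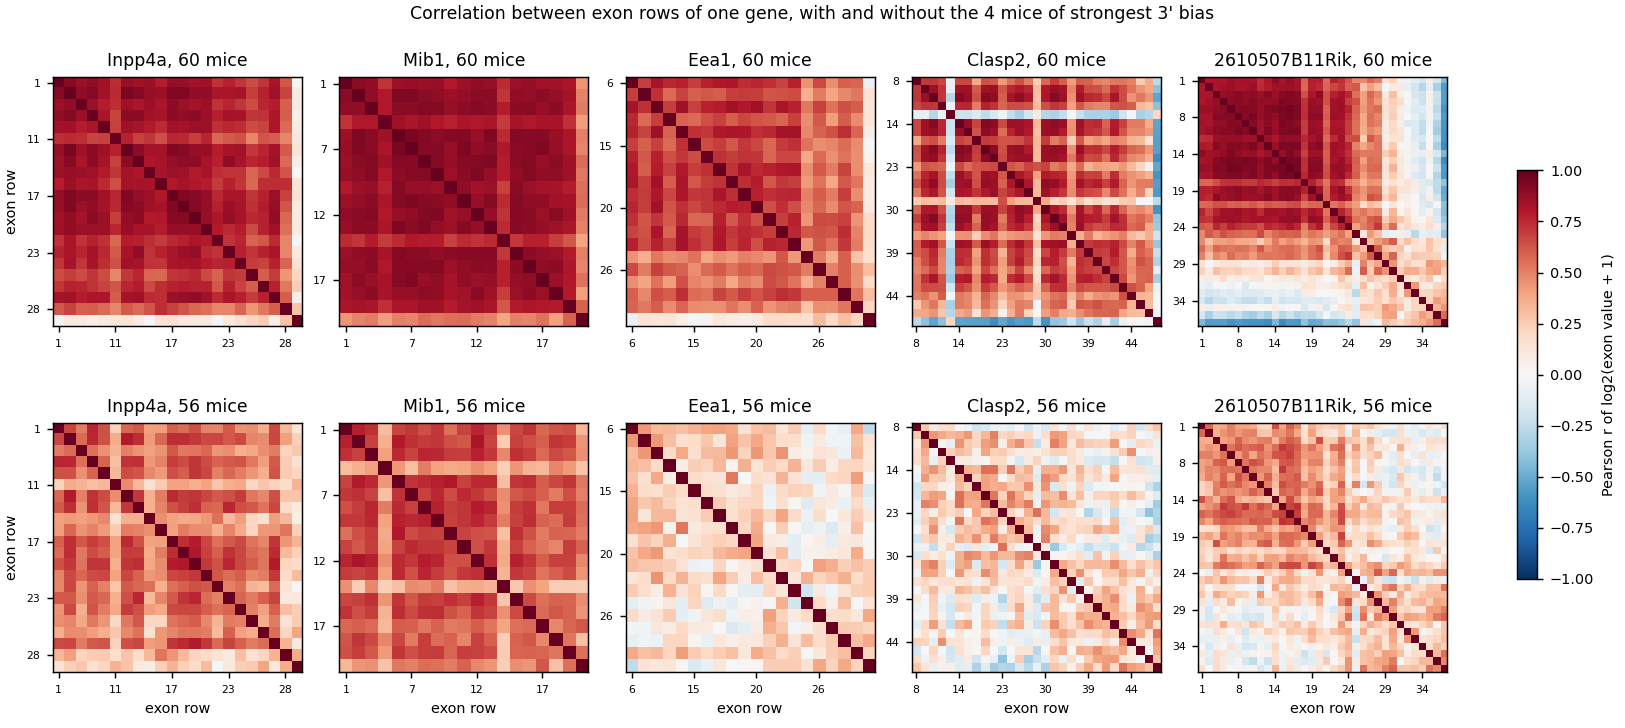
Each panel is the matrix of Pearson correlations between the exon rows of 1 gene that averaged at least 10, ordered from 5′ to 3′ on both axes, with red for positive and blue for negative values. The upper panels use 60 mice and the lower ones the 56 left without mice 63, 5, 4 and 62. Most rows of Inpp4a, Mib1, Eea1 and Clasp2 form 1 red block that leaves out the last row, 2610507B11Rik splits into a 5′ and a 3′ block, and the blocks of Eea1 and Clasp2 fade in the lower panels.

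When the rows of each gene were split into 2 clusters by these correlations over 60 mice, the last row stood alone in Inpp4a, Mib1 and Eea1. In Clasp2 it shared its cluster with row 13 alone, the terminal exon of the short transcripts. In 2610507B11Rik the last row was joined by 9 others, the cluster of 10 starting at row 26. The clusters of the first 3 genes were the same without mouse 63, those of 2610507B11Rik again held 10 rows from row 26, and the Clasp2 cluster took in 1 more row. Without the 4 mice of strongest bias the split by exon values was another one: the last row then shared its cluster with 1 row in Inpp4a, 5 in Eea1, 17 in Mib1, 25 in Clasp2 and 12 in 2610507B11Rik. Over 60 mice the shares of all other rows in Inpp4a (21), Mib1 (18) and Eea1 (19) correlated negatively with that of the last row. The medians were -0.797, -0.91 and -0.712. In Clasp2 27 of 28 rows were negative, and row 13 was the 1 positive at 0.338. In 2610507B11Rik 21 of 33 rows were negative, while the other 12 were positive, up to 0.794 for row 36. Without mouse 63 all rows of the first 3 genes stayed negative, with medians of -0.71, -0.852 and -0.605. In Clasp2 3 rows were then positive, and the highest was row 46 at 0.178. The exon values of Clasp2 rows 13 and 47 correlated at 0.205 over 60 mice, 0.0998 without mouse 63 and 0.0514 without the 4 mice. A share is part of a sum, so a row that holds most of its gene pushes the shares of the others down.

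The fall with distance along the gene was widest in 2610507B11Rik. Leaving out the last row, adjacent rows of that gene had a median correlation of 0.769 and rows over 10 apart 0.142, and for shares the medians were 0.576 and -0.423. In Mib1 the same medians for values were 0.879 and 0.854, in Inpp4a 0.805 and 0.739, in Eea1 0.693 and 0.573, and in Clasp2 0.67 and 0.522.

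The genes also resembled each other in the part before the last row. Between the 10 pairs of members, the sum of the rows before the last had a median correlation over 60 mice of 0.902 (0.828 to 0.943), 0.839 without mouse 63 and 0.549 without the 4 mice. The last row's exon value had medians of 0.225, 0.241 and 0.214, and the gene value 0.597, 0.515 and 0.304. The last row's share had medians of 0.919, 0.891 and 0.78.

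CoSplicEx reads these differences as distances. The Canberra distance between a pair of mice sums, over the rows of a gene, the difference of the exon values divided by their sum, so a low row weighs as much as a high one. For all 5 genes mouse 63 had the largest mean distance to the other mice and mouse 5 the second largest, and mice 4 and 62 came next, in either order. In Clasp2 the means were 23.4, 16.1, 14.3 and 12.3 for mice 63, 5, 4 and 62, against 7.65 for the median mouse. In 2610507B11Rik they were 15.7, 10.02, 8.03 and 6.37, against 3.36. The 59 pairs with mouse 63, out of all pairs of the 60 mice, held 43.3% of the variance of the distances in Inpp4a, 41.8% in Mib1, 48.1% in Eea1, 51.02% in Clasp2 and 58.1% in 2610507B11Rik.

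Connectivity sums, over all other genes, the absolute correlation of these distances raised to the power of 6. It was 729 for Inpp4a, 728 for Mib1, 722 for Eea1, 713 for Clasp2 and 702 for 2610507B11Rik, against a median of 12.1 and a maximum of 816 over the 9066 genes, so the members ranked 38, 41, 48, 58 and 74 and were high but not the first. Without mouse 63 it was 334, 339, 311, 278 and 276, at ranks 76, 68, 116, 186 and 192. Without the 4 mice it was 29.4, 31.3, 11.5, 19.3 and 4.56, at ranks 185, 165, 747, 356 and 1871, and the median of all genes was 1.14. In the 43 deep libraries alone, which hold all 4 of these mice, it was higher, from 952 in Clasp2 to 1010.5 in Mib1, beside a median of 21 over all genes. Between members the correlation of distances had a median of 0.923 over the 10 pairs, 0.856 without mouse 63 and 0.467 without the 4 mice.

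**Figure D4:**
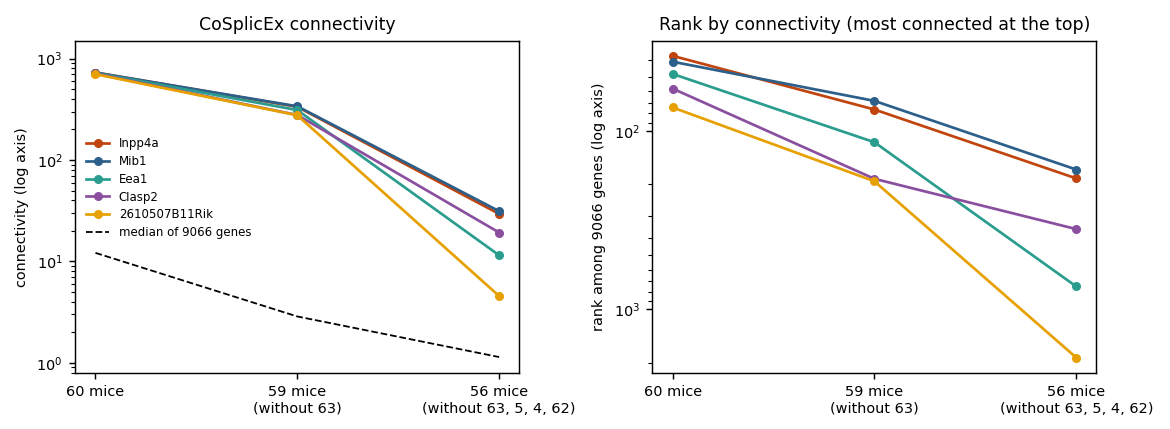
The left panel gives CoSplicEx connectivity (log axis) of the 5 genes over 60, 59 and 56 mice, with the median of 9066 genes as a dashed line, and the right panel gives their rank (log axis, most connected at the top). All 5 fall together from 702 to 729 down to 276 to 339 without mouse 63, and they spread from 4.56 to 31.3 without mice 63, 5, 4 and 62.

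The genes outside the set whose distances followed the members most closely came from several families, ubiquitin ligases among them. For Inpp4a they were Herc2, a ubiquitin ligase, at r = 0.960, Vps13d, a lipid transfer protein, at 0.957 and Zzef1 at 0.957. For Mib1 they were Cdc42bpa, a kinase, at 0.957, Huwe1, a ubiquitin ligase, at 0.956 and Nf1, a Ras regulator, at 0.955. Eea1 was followed by Usp34, a deubiquitinase, at 0.951, Huwe1 at 0.947 and Dicer1, which cuts microRNA precursors, at 0.947. Clasp2 was followed by Cdc42bpa at 0.940, Huwe1 at 0.937 and Usp34 at 0.936, and 2610507B11Rik by Dpp8, a peptidase, at 0.962, Spag9, a kinase scaffold, at 0.957 and Cdc42bpa at 0.956. These 15 correlations are over pairs of mice. Without mouse 63 they ran from 0.878 for Clasp2 with Usp34 to 0.934 for Inpp4a with Herc2.

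The labels divide the mice into catalepsy responders and non-responders, and the question put to the members was whether any exon row, share or gene value differed between them. None passed the test. The 30 responders and 30 non-responders overlapped in every gene. Inpp4a had a median gene value of 4915 in responders (3568 to 5975) and 4788 in non-responders (3133 to 6253). Mib1 had 6275 (4330 to 8327) and 6113 (4683 to 7991), and Eea1 had 1655 (1063 to 1941) and 1617 (1182 to 1944). Clasp2 had 6096 (5037 to 6949) and 6185 (5066 to 6718), and 2610507B11Rik had 6335 (2990 to 7191) and 6294 (4389 to 7293). In limma, with sex as a covariate, 0 of the 5 gene values passed an adjusted p of 0.05 and 0 had an unadjusted p under 0.05, where 9 of 8535 genes passed (0.105%), and edgeR on the recovered reads also called 0 of the 5. The difference in log2 gene value, responders minus non-responders, was 0.03 in Inpp4a (95% interval -0.07 to 0.13), 0.0045 in Mib1 (-0.09 to 0.10), 0.03 in Eea1 (-0.06 to 0.12), -0.01 in Clasp2 (-0.07 to 0.05) and -0.03 in 2610507B11Rik (-0.13 to 0.07).

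Among single rows, limma on log2(exon value + 1) called 0 of the 124 tested, beside 12 of 67578 over all genes (0.0178%). The smallest adjusted p of a member row in that limma fit was 0.99984. Over all genes 2982 of the 67578 rows had an unadjusted p under 0.05, and among the member rows 1 did. It was 2610507B11Rik row 33, which ran from 93 to 162 over all mice and differed by -0.10 (SE 0.048) on the log2 scale. The rows of smallest p in the other genes were Inpp4a row 11 (-0.25, SE 0.19), Mib1 row 1 (-0.24, SE 0.19), Eea1 row 32 (0.05, SE 0.039) and Clasp2 row 40 (-0.12, SE 0.077). Of the 124 differences 37 were positive and their median was -0.04, beside a median of -0.03 over all rows. Without mouse 63 the direction of this median turned, with 91 of 124 positive and a median of 0.02, beside 0.0036 over all rows. No member row was called with it or without it.

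**Figure D5:**
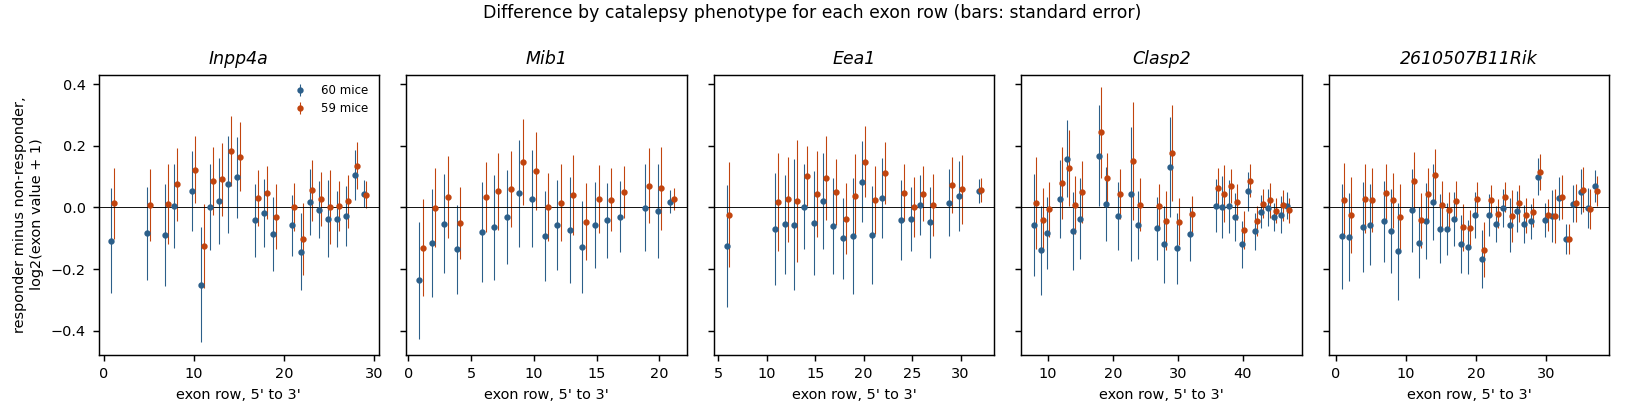
Each point is the log2 difference in exon value, responder minus non-responder and adjusted for sex, of 1 exon row, with bars of 1 standard error, in blue for 60 mice and red for the 59 without mouse 63. Most blue points lie just under 0 and most red points just over it, by less than their bars.

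Exon shares, tested on the log2 odds of the share, gave 0 calls among the 124 rows, beside 14 of 67134 over all genes (0.0209%), and limma's diffSplice also called 0 of them, none of which had an unadjusted p under 0.05 there. In the main test 1 row did, 2610507B11Rik row 19 (difference -0.10, SE 0.052), an exon of 221 bases. Over all genes 3209 of the 67134 rows had an unadjusted p under 0.05 in the main test. The rows of smallest p by share in the other genes were Inpp4a row 11 (-0.28, SE 0.16), Mib1 row 1 (-0.24, SE 0.16), Eea1 row 18 (-0.14, SE 0.11) and Clasp2 row 40 (-0.11, SE 0.067). The share of the last row had a median of 54.9% in responders and 53.9% in non-responders for Inpp4a, 78.1% and 76.9% for Mib1, 59.2% and 58.04% for Eea1, 43.6% and 43.5% for Clasp2, and 10.8% and 10.1% for 2610507B11Rik. The slope of log2 exon value along the gene gave 0 calls among the 5 members, 0 of them under an unadjusted p of 0.05, beside 1 of 2474 genes (0.0404%).

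No member passed the test by sex either. Of the 124 rows, 0 were called between male and female mice by limma on exon values, beside 1 of 67578 (0.00148%). In that fit 1 member row had an unadjusted p under 0.05, beside 1301 of all 67578. The members' shares gave 0 calls with 1 unadjusted p under 0.05, beside 0 of 67134 (0%), where 1767 had an unadjusted p under 0.05. Their gene values gave 0 calls and 0 unadjusted p under 0.05, beside 3 of 8535 (0.0351%). The difference by phenotype between the sexes, tested as an interaction in limma, was called in 0 of the 124 rows, with 0 under an unadjusted p of 0.05, beside 0 of 67578 (0%), of which 798 were under an unadjusted p of 0.05.

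Genes of the pathways in which these proteins act were looked at by gene value in the limma fit by phenotype, which called 9 of all 8535 genes (0.105%). Of 40 genes of endosomal phosphoinositide metabolism and Rab5 function, 32 were in the table, 0 were higher in responders and 1 was lower. This was Rbsn, which encodes rabenosyn-5, a Rab5 effector that binds the same endosomal lipid as Eea1. Its gene value was 1442 in the median responder (1139 to 1772) and 1639 in the median non-responder (1332 to 1887), so the groups overlapped with responders lower. The log2 difference was -0.19 (SE 0.040, adjusted p = 0.0148 in limma). It was -0.23 among females and -0.16 among males, was not called in either sex alone (limma adjusted p = 0.777 and 0.797) or in the 43 deep libraries alone (-0.19, limma adjusted p = 0.107), and mouse 63 held the lowest value, with a difference of -0.18 and a limma adjusted p of 0.0215 without it. Over all alternatives run the adjusted p of Rbsn in limma or edgeR lay between 0.00545 and 0.797. The list had a median difference of 0.01 beside -0.0033 over all 8535 genes.

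The other lists held no call. Of 38 genes of Notch signalling, in which Mib1 acts, 26 were tested and Rfng, a glycosyltransferase that modifies Notch, had the smallest p (limma adjusted p = 0.305), at a median of 488 in responders and 535 in non-responders. Of 38 genes of microtubule ends, 34 were tested and Slain2 had the smallest p (limma adjusted p = 0.363), at 629 and 573. All 9 genes of bridge-like lipid transfer were tested, with Vps13c at the smallest p (limma adjusted p = 0.999), with medians of 1284 and 1257 but means of 1255 and 1323 and a fitted difference of -0.11. The median differences of these 3 lists were -0.04, -0.02 and -0.02.

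Markers of cell types did not pass the test by phenotype in any list (9 of 12 striatal, 2 of 6 cortical, 4 of 6 astrocyte, 5 of 6 oligodendrocyte, 3 of 4 microglial and 1 of 3 endothelial genes were in the table). Mouse 63 had the lowest summed astrocyte markers of all mice, at 82894 against 86693 to 176219 in the others. Among the 4 genes of that sum, Slc1a2, a glutamate transporter, stood at 48344 against a median of 96965 in the other mice, while Aldoc (16438 against 10657), Gja1 (5777 against 5129) and Slc1a3 (12335 against 12311) were not below theirs. Its microglial markers, at 3909, lay near the top of their range of 1729 to 3941, and its summed striatal markers, at 121397, lay within 65317 to 145387. That sum holds genes that moved both ways. Penk (42536 against a median of 20548) and Tac1 (5529 against 2655) were higher, as were Ppp1r1b, Drd2, Rgs9 and Adora2a. Pde10a (13430 against 26881), Bcl11b (4165 against 6575) and Foxp1 (3196 against 4247) were lower. Summed oligodendrocyte (190193), cortical (1500.3) and endothelial (680.6) markers also lay inside the ranges of the others. Their part in the values of mouse 63 was not tested.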

How the data were processed

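Reads were aligned by the authors with Bowtie (version 0.12.7 in the submitters' processing notes, which also name CASAVA, FastQC, R 3.0.2 and edgeR 3.4.2) to the mm9 build and counted on Ensembl 59 union exons. The deposited gene values are a signal, counts multiplied by an upper quartile factor, and 100% of them were whole multiples of 1 read within 0.01 read. The deposited exon values are a score, the same product rounded to whole numbers, so they were not tested as counts. Because junction reads and exon ends are not in the files, exon lengths and distances came from GENCODE M21, matched by spacing between starts, and mm9 coordinates were not converted.

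Tests used limma 3.58.1 with a trend on log2(value + 1) for features averaging at least 10, or on the log2 odds of a share, with sex as a covariate and Benjamini-Hochberg adjustment over all features at 0.05. Slopes along genes were fitted without a trend. The edgeR quasi-likelihood test (4.0.16) on recovered reads and limma's diffSplice were alternatives. Distances, correlations and clusters (average linkage) were computed in Python 3.11.15 with scipy 1.17.1, and strands were known for 8858 genes (97.7%). On simulated data with 200 changed features at a log2 change of 0.5, the tests recovered 200 of 200 exon values, 198 of 200 exon shares, 200 of 200 gene values (limma and edgeR) and 174 of 200 slopes. They also called 10, 20, 9 (limma), 6 (edgeR) and 6 features that had not been changed, in the same order. For exon shares that count covers only genes without a changed row. The changed exon rows and genes averaged at least 100, and noise was drawn independently for each feature without a 3′ bias. For exon rows and genes the noise had 1 fixed dispersion that was not fitted to these mice. The recovery therefore does not give the power of the tests for the member rows. Recovery in lower rows, at the spread between these mice, or with mice of strong 3′ bias, was not simulated.

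The members, lists and tests were chosen with earlier results of these data known. Named rows are those of highest and lowest mean, of extreme share in mouse 63 and of smallest p, and named genes are the 3 nearest by distance and the called or smallest-p gene of each list. Mouse 63, the 4 mice of strongest 3′ bias, depth, sex, pseudocount, filters and scaling were varied as alternatives. Replicates are separate mice.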

Additional observations from a re-analysis of the deposited data

How the results depend on the processing

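No member exon row, share, gene value or slope was called by phenotype in any setting in which it was tested. By sex, no member row was called on exon values in the settings run. Shares and gene values were fitted by sex in the main setting only, without a member call, and slopes were not tested by sex. Over all genes the number of calls did depend on the setting. Exon values by phenotype gave 12 calls, 73 with the 3′ bias of the mouse as a covariate, 27 without the 4 mice of strongest bias, 24 with depth as a covariate, 2 in deep libraries, 0 in females and 1 in males. Exon shares gave 14 calls, and under the corresponding settings 46 with bias, 27 without the 4 mice, 8 in deep libraries, 0 in females and 1 in males, with 88 by diffSplice. Gene values gave 9, then 39 with bias, 20 with depth, 3 in deep libraries and 0 in females or males alone. Slopes gave 1, then 2 without the 4 mice and 0 in females, and exon values by sex gave 1, then 9 without mouse 63 and 15 with bias. The median over the 5 members of the correlation between rows was 0.621 for values, 0.336 with Spearman ranks, 0.258 after the 3′ bias was regressed out and 0.245 without the 4 mice, and 0.725 in deep libraries. For shares it was 0.423, then 0.0499 after the 3′ bias was regressed out, 0.051 without the 4 mice and 0.571 in deep libraries. The median connectivity was 722, 311 without mouse 63, 19.3 without the 4 mice, 90.4 with Spearman correlation of distances and 967 in deep libraries. The correlation over rows averaging at least 100 could not be given for Eea1, which has too few such rows. No paired analysis was possible because each mouse has its own number. Exon values of the short rows are low, with medians under 10, and whether depth limits them was not tested. The cause of these changes was not tested.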
